A study of Homo sapiens with 6 samples.

Results

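The Notch genes described here are 3 receptors (NOTCH1, NOTCH2 and NOTCH3), 3 ligands (JAG1, JAG2 and DLL1) and 4 target genes (HES1, HES4, HEY1 and NRARP). They were taken by symbol from a gene count table of 36459 genes, and all 10 symbols were found. RNA was sequenced from PC9, a line derived from human NSCLC (non-small cell lung cancer) whose growth depends on mutant EGFR, and from the persister cells (PS) left once that line had been held in 15 µM erlotinib, which blocks the EGFR kinase, for 6 days. Each condition had 3 libraries of poly-A RNA. The PC9 libraries came from 3 independent cultures that had received no erlotinib. The PS libraries came from 9 independently treated cultures pooled into 3, so part of the culture-to-culture spread was averaged out on that side only. Both conditions are of the same line, and neither carries any other allele or agent named in the sample labels. PS cells were still in erlotinib when RNA was taken, so the presence of the drug and the persister state cannot be told apart.

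Notch signalling runs between touching cells. A Delta or Jagged ligand on one cell binds a Notch receptor on its neighbour, ADAM proteases and then gamma-secretase cut the receptor, and the freed intracellular domain moves to the nucleus, where it joins the DNA-binding protein RBPJ and a Mastermind co-activator to switch on targets such as the HES and HEY repressors. In the airway the pathway is known for setting the balance between secretory and ciliated cells. The target NRARP acts back on the pathway as an inhibitor of the intracellular domain.

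Libraries held between 29476725 and 34893782 counts assigned to genes. In an edgeR quasi-likelihood fit across the 14626 genes with enough counts, 8307 genes, or 56.8%, changed between PS and PC9 at a Benjamini-Hochberg adjusted p under 0.01, of which 4193 (28.7%) were higher and 4114 (28.1%) lower in PS. A call alone was thus the usual outcome for a gene in these libraries. A stricter requirement of a more than 2-fold change left 1691 genes, or 11.6%. All 8 genes of a list of EGFR-ERK output fell, with a summed level of 547 to 579 CPM (counts scaled to equal library size) in PC9 and 189 to 194 CPM in PS. All 7 epithelial markers were present, at a summed 7810 to 8410 CPM in PC9 and 6150 to 6530 CPM in PS. Of the 8 proliferation genes, 5 rose and 1 fell. Markers of other cell types were lower in sum. The endothelial list summed to 8.28 to 9 CPM in PC9 and 3.73 to 4.27 CPM in PS, the immune list to 74.6 to 76.2 and 19.5 to 22.5 CPM, nearly all of it CD68, and the fibroblast list to 10.2 to 10.7 and 26.5 to 30.1 CPM, nearly all of it COL1A1. The defining markers CD3E, MS4A1 and COL3A1 were at 0 in all 6 libraries. The part of these marker levels in the Notch results was not tested.

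Of the 10 Notch genes, 9 had enough counts to be tested and DLL1 did not. NOTCH2 rose in PS, NOTCH3, JAG1, HES1 and NRARP fell, and NOTCH1, JAG2, HES4 and HEY1 did not pass the test. These 5 called genes are 55.6% of the 9 tested, beside 56.8% of all tested genes. The 1 gene that rose and the 4 that fell stand beside 28.7% and 28.1% of all tested genes. The median log2 fold change was 0.005 over the 9 genes and -0.006 over all tested genes. NOTCH3 and HES1 changed by more than 2-fold, both downward, where 5.91% of all tested genes did so, and none rose that far, where 5.65% did. CPM values of the 2 conditions did not overlap for 7 of the 9 genes, and for 71.3% of all tested genes. As a set, the Notch genes therefore changed about as often as other genes, and the results below concern which of them moved and in which direction. In bulk RNA, fewer cells expressing a gene and less of its RNA in each cell cannot be told apart. Library sizes behind the CPM values were adjusted by TMM.

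**Figure D1:**
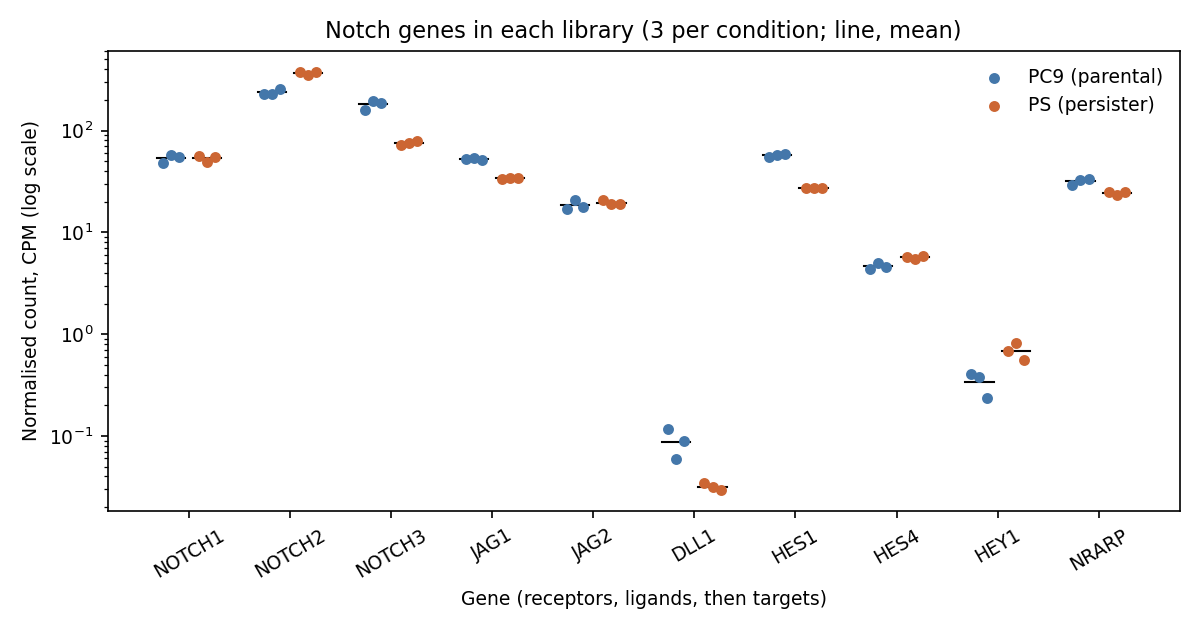
Level of each of the 10 Notch genes in CPM (vertical axis, logarithmic) in each library, with PC9 and PS libraries in separate colours and 1 point per library; short bars mark the means. The 3 NOTCH2 points of PS lie above those of PC9, those of NOTCH3, JAG1, HES1 and NRARP lie below, and those of NOTCH1 and JAG2 intermix.

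The receptors are large single-pass membrane proteins, of which NOTCH2 rose, NOTCH3 fell and NOTCH1 did not pass the test. NOTCH3 (ENSG00000074181, minus strand of chr19:15159038-15200995, GRCh38), which is best known from vascular smooth muscle, stood at 159.7, 197 and 185 CPM in the PC9 libraries and at 73.0, 74.9 and 78.7 CPM in the PS libraries. Every PS library was below every PC9 library by a wide margin. The mean fell from 180.5 ± 19.0 to 75.5 ± 2.93 CPM (SD, n = 3 each), a log2 fold change of -1.26 (SE 0.0693, 95% interval -1.41 to -1.103) or 2.39-fold, with an edgeR adjusted p of 5.4e-08. Only 4.26% of all tested genes had a lower log2 fold change. The fall was carried by the full-length coding transcript NOTCH3-201, whose log2 fold change was -1.29 (edgeR adjusted p 0.000491).

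NOTCH2 (ENSG00000134250, minus strand of chr1:119911553-120100779), a receptor that many epithelia express, stood at 230.5, 228 and 254 CPM in the PC9 libraries and at 379, 353 and 377 CPM in the PS libraries. It was the only one of the 9 tested Notch genes called as higher in PS at an adjusted p under 0.01. The mean went from 237 ± 14.3 to 370 ± 14.5 CPM (SD, n = 3 each), a log2 fold change of 0.64 (SE 0.0483, 95% interval 0.53 to 0.75) or 1.56-fold, with an edgeR adjusted p of 6.37e-07. A higher log2 fold change was found for 11.5% of tested genes. The coding transcript NOTCH2-201 held 98.7% of the gene's counts in PC9 and 99.1% in PS, and rose by 0.62 on the log2 scale (edgeR adjusted p 0.00119). NOTCH2 has near-identical partial copies in the genome, the NOTCH2NL genes, and reads may have been split among them. One of them, NOTCH2NLA, stood at 11.5 ± 0.727 CPM in PC9 and at 12.3 ± 1.14 CPM in PS (SD, n = 3 each), and was not called (log2 fold change 0.10, edgeR adjusted p 0.317). With the counts of NOTCH2 and the NOTCH2NL genes summed, the log2 fold change was 0.618 (edgeR adjusted p 7.82e-07), so the rise was still called.

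NOTCH1 (ENSG00000148400, minus strand of chr9:136494433-136546048), the receptor first tied to leukaemia, stood at 47.9, 57.4 and 54.6 CPM in the PC9 libraries and at 55.9, 49.6 and 55.1 CPM in the PS libraries. The conditions intermixed, and the means of 53.3 ± 4.85 and 53.5 ± 3.45 CPM (SD, n = 3 each) gave a fold change of 1.00 with a 95% interval of 0.902 to 1.12 (edgeR adjusted p 0.952). Of NOTCH1's counts, only 43.4% lay in transcripts that could be matched to the annotation used here. Its main matched transcript, NOTCH1-204, held 47.5 ± 11.4% of the gene's counts in PC9 and 36.5 ± 3.98% in PS (SD, n = 3 each). NOTCH1-204 was not called (log2 fold change -0.415, edgeR adjusted p 0.387). A test of whether transcripts of NOTCH1 changed in proportion (edgeR diffSpliceDGE) gave an unadjusted p of 0.98, so the difference in share did not pass.

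Because the receptors differ in length, their levels were set side by side as CPM per kilobase of transcript (CPM/kb). The length used for NOTCH1 came only from its matched transcripts, which held 43.4% of its counts, so its levels and shares per kilobase are approximate. NOTCH2 and NOTCH3 stood at nearly the same level in PC9, at 20.8 and 20.9 CPM/kb, and apart in PS, at 32.4 and 8.73 CPM/kb. The ratio of NOTCH2 to NOTCH3 was 1.09, 0.877 and 1.04 in the PC9 libraries and 3.94, 3.57 and 3.63 in the PS libraries, a 3.7-fold difference of the means. The 3 receptors summed to 47.3 ± 3.11 CPM/kb in PC9 and 46.8 ± 1.70 CPM/kb in PS (SD, n = 3 each), a ratio of 0.989 with an exact two-sided permutation p of 0.7. The summed receptor RNA per length thus differed by less than the spread between libraries.

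Within that sum, NOTCH2 made up 46.2, 40.9 and 45.01% in PC9 and 69.8, 69.0 and 68.9% in PS. Its mean share was 44.04 ± 2.77% in PC9 and 69.2 ± 0.528% in PS (SD, n = 3 each), higher by 25.2 percentage points. NOTCH3 made up 42.2, 46.7 and 43.3% in PC9 and 17.7, 19.3 and 19.0% in PS, lower by 25.4 percentage points. NOTCH1 made up 11.9 ± 0.462% in PC9 and 12.1 ± 0.371% in PS, with an exact permutation p of 0.8. Shares within a library do not depend on how libraries are scaled to each other. For NOTCH2 and NOTCH3 the exact two-sided permutation test gave p = 0.1, the smallest value that 3 libraries against 3 allow, so this test could not reach 0.05.

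**Figure D2:**
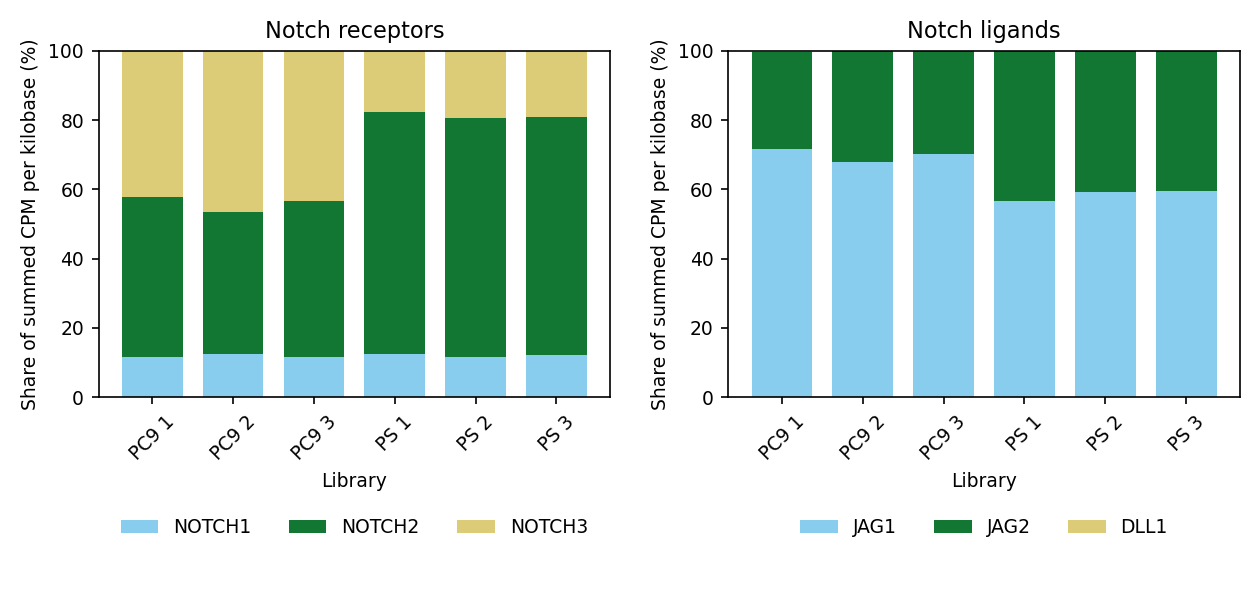
Share of each receptor in the summed level of the 3 receptors, and of each ligand in that of the 3 ligands, in percent of CPM per kilobase, as stacked bars with 1 bar for each of the 6 libraries. NOTCH2 takes 40.9 to 46.2% of receptor RNA in PC9 and 68.9 to 69.8% in PS, JAG1 takes a smaller part of ligand RNA in PS, and DLL1 is too small to be seen.

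The ligands are membrane proteins presented to a neighbouring cell. JAG1 (ENSG00000101384, minus strand of chr20:10637684-10673999) stood at 52.6, 53.7 and 51.1 CPM in the PC9 libraries and at 33.3, 34.1 and 34.6 CPM in the PS libraries. Libraries of a condition lay close together and the conditions were well apart. The mean fell from 52.4 ± 1.32 to 34.0 ± 0.657 CPM (SD, n = 3 each), a log2 fold change of -0.63 (SE 0.0438, 95% interval -0.72 to -0.53) or 1.54-fold, with an edgeR adjusted p of 3.46e-07. The coding transcript JAG1-201 carried 97.2% of its counts in PC9 and 94.5% in PS, and fell by 0.69 on the log2 scale (edgeR adjusted p 0.000396).

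JAG2 (ENSG00000184916, minus strand of chr14:105140982-105168824), the related second Jagged ligand, stood at 16.9, 20.6 and 17.6 CPM in the PC9 libraries and at 20.6, 19.1 and 19.1 CPM in the PS libraries. The conditions overlapped, and the means of 18.4 ± 1.96 and 19.6 ± 0.861 CPM (SD, n = 3 each) differed by a log2 fold change of 0.09 (95% interval -0.08 to 0.27, edgeR adjusted p 0.30). In fold terms the interval ran from 0.948 to 1.20. Unlike JAG1, JAG2 was divided over several transcripts, with 53.2% of its counts in the coding JAG2-201, 20.8% in the coding JAG2-202 and 20.1% in the intron-retaining JAG2-203 in PC9, and 46.5, 27.7 and 18% in PS. None of these 3 transcripts passed the test.

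DLL1 (ENSG00000198719, minus strand of chr6:170282206-170306565), a Delta-type ligand, was barely detected. Its counts were 4, 2 and 3 in the PC9 libraries and 1, 1 and 1 in the PS libraries, 9 and 3 in all, so no difference could be tested at this depth. None of these counts lay in a transcript matched to the annotation. Levels per kilobase of DLL1 therefore use the length of the annotated DLL1-201, which itself received no counts. The exons of DLL1 share 370 bases with FAM120B on the opposite strand, which had 691 to 882 counts per library, and whether the counting used strand is not given in the sources used here. JAG1 and NRARP share 306 and 73 exonic bases with antisense non-coding genes, and JAG2 shares 469 with a non-coding gene on its own strand, none of which is a row of the gene table.

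Per kilobase, JAG1 went from 8.97 to 5.81 CPM/kb and JAG2 from 3.86 to 4.12 CPM/kb, so the summed ligands went from 12.9 ± 0.585 CPM/kb in PC9 to 9.94 ± 0.0868 CPM/kb in PS (SD, n = 3 each), a ratio of 0.774. JAG1 made up 71.5, 67.9 and 70.1% of ligand RNA in the PC9 libraries and 56.8, 59.2 and 59.5% in the PS libraries. The mean share of JAG2 was 29.96 ± 1.89% in PC9 and 41.4 ± 1.5% in PS (SD, n = 3 each), although its own level did not pass the test. The ligand sum and both shares separated the conditions in all 6 libraries, with the smallest exact permutation p available, 0.1.

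The targets HES1 and HES4 encode basic helix-loop-helix repressors of related sequence, and their promoters are shown because HES1 fell and HES4 did not pass the test while both carry the same RBPJ motif letters. Below are the 250 bases before each gene start from the RefSeq table (GRCh38.p14), 5′ to 3′ on the strand of the gene, at chr3:194135898-194136147 for HES1 and at chr1:1000098-1000347 on the minus strand for HES4. Capitals mark the letters GTGGGAA or TGGGAA, which RBPJ is known to bind.
HES1: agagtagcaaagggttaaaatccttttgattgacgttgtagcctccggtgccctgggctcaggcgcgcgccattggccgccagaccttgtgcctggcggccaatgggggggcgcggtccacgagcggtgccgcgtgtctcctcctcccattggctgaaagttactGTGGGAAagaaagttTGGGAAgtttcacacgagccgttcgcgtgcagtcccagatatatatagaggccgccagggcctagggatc
HES4: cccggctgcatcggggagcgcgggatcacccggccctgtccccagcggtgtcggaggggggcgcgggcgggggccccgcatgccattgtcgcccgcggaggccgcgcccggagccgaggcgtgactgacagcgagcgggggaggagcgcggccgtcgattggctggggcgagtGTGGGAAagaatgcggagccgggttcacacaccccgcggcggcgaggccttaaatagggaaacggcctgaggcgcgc
HES1 holds GTGGGAA 85 to 79 bases before its start and a further TGGGAA 70 to 65 bases before it. HES4 holds GTGGGAA 77 to 71 bases before its RefSeq start, chr1:1000097. The gene span given for HES4 below, chr1:998962-1000172, reaches past that start into the printed bases, so the HES4 distances depend on the start used. The longest run common to both was tGTGGGAAagaa, 12 bases starting 86 bases before the start of HES1 and 78 before that of HES4. It was found in 6 of 35116 promoters of this length, or 0.0171%, with HES1 and HES4 among the 6. The run was picked because both hold it, so this share tests nothing about the pair. A letter match is a description and not a site.

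Across the 8 of the 10 genes matched in the promoter table, both strands were searched. GTGGGAA was found in 2 of the 8 promoters (HES1 and HES4) and in 5.43% of all 35116. TGGGAA, which lies inside GTGGGAA, was found in the same 2 and in 20.8% of all. CACNAG, the N-box that HES proteins are known to bind, was found at 3 places in HES1 and at 1 place in NOTCH3, 211 bases before its start, and in 32.0% of all promoters. GC content of the 8 promoters ran from 59.2 to 81.6%, above the median of 58.0% over all promoters.

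**Figure D3:**
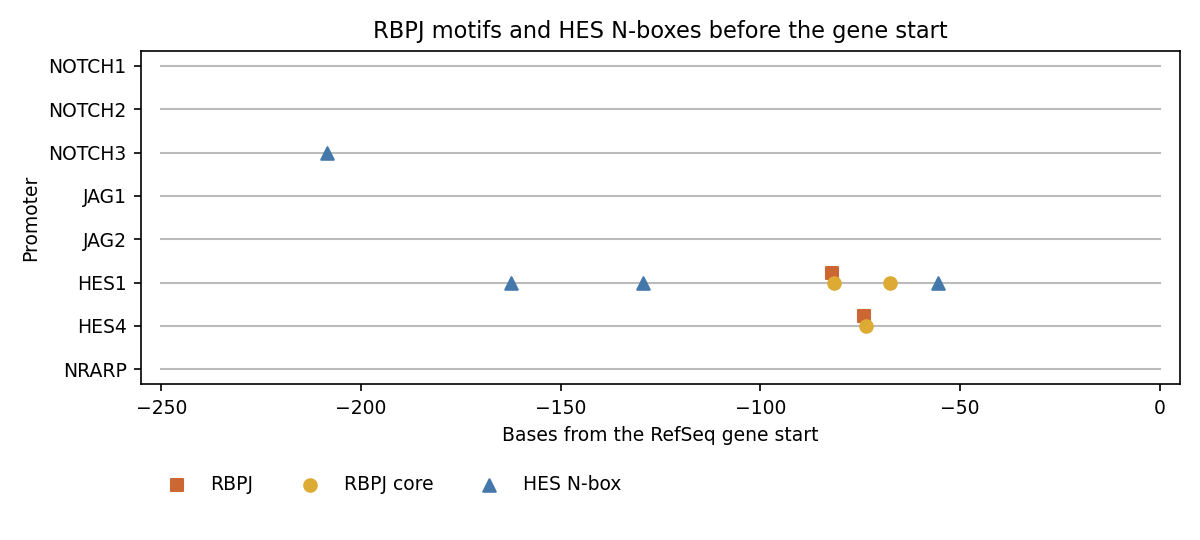
Position of RBPJ motif letters and of the HES N-box in the 250 bases before the RefSeq start of each matched Notch gene, with distance from that start in bases on the horizontal axis and 1 line per gene. HES1 and HES4 carry the longer RBPJ letters at 85 and 77 bases before the start, and the N-box falls in HES1 and NOTCH3.

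HES1 (ENSG00000114315, plus strand of chr3:194136148-194138732), a repressor that holds back differentiation in many tissues, stood at 55.2, 57.6 and 59.3 CPM in the PC9 libraries and at 27.5, 27.3 and 27.6 CPM in the PS libraries. The PS libraries were almost equal to each other and less than every PC9 library. The mean fell from 57.4 ± 2.08 to 27.5 ± 0.145 CPM (SD, n = 3 each), a log2 fold change of -1.06 (SE 0.0459, 95% interval -1.17 to -0.96) or 2.09-fold, with an edgeR adjusted p of 8.15e-09, the smallest among the 9 tested Notch genes. A lower log2 fold change was found for 5.73% of tested genes.

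The fall of HES1 was in its coding transcript HES1-201, which had 1800, 1900 and 1932 counts in PC9 and 720, 799 and 857 in PS (log2 fold change -1.17, edgeR adjusted p 0.000139). The intron-retaining HES1-202 had 99, 62 and 65 counts in PC9 and 83, 60 and 85 in PS, and was not called (log2 fold change 0.10, edgeR adjusted p 0.864). Its share of the gene's counts was 3.88 ± 1.16% in PC9 and 8.78 ± 1.69% in PS (SD, n = 3 each). A test of whether transcripts of HES1 changed in proportion gave an unadjusted p of 0.146 and an adjusted p of 1, so the shift in share did not pass.

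HES4 (ENSG00000188290, minus strand of chr1:998962-1000172), a repressor of the same family, was at a far lower level. Its values were 4.33, 5.02 and 4.54 CPM in PC9 and 5.79, 5.46 and 5.91 CPM in PS, with means of 4.63 ± 0.356 and 5.72 ± 0.231 CPM (SD, n = 3 each). The conditions did not overlap, but the log2 fold change of 0.30 (SE 0.0983, 95% interval 0.09 to 0.52) had an edgeR adjusted p of 0.0175 and missed the limit of 0.01. Its counts were divided between the coding transcripts HES4-201 (46.8% in PC9, 48.7% in PS) and HES4-202 (40.7% and 42.1%).

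HEY1 (ENSG00000164683, minus strand of chr8:79762371-79767857), a repressor known from heart and vessel development, was close to the detection limit, with 14, 13 and 8 counts in PC9 and 20, 26 and 19 counts in PS. All 3 PS libraries were above all 3 PC9 libraries, at 0.689 ± 0.135 against 0.342 ± 0.0914 CPM (SD, n = 3 each). The log2 fold change of 1.00 had a wide 95% interval of 0.31 to 1.68 and an edgeR adjusted p of 0.0143. The gene passed the filter on low counts only through PS, where it was higher. The assignment of its reads between HEY1-201 and HEY1-202 switched between libraries, from 0 to 100%, and is not usable.

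NRARP (ENSG00000198435, minus strand of chr9:137299631-137302271), the feedback inhibitor, stood at 29.0, 32.7 and 33.1 CPM in the PC9 libraries and at 25.0, 23.3 and 24.9 CPM in the PS libraries. Every PS library was below every PC9 library, though by less than for HES1. The mean fell from 31.6 ± 2.25 to 24.4 ± 0.950 CPM (SD, n = 3 each), a log2 fold change of -0.37 (SE 0.0618, 95% interval -0.51 to -0.24) or 1.30-fold, with an edgeR adjusted p of 0.000287. Of all tested genes, 23.9% had a lower log2 fold change. Its single transcript, NRARP-201, had an adjusted p of 0.0181 in the transcript fit and was not called there.

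**Figure D4:**
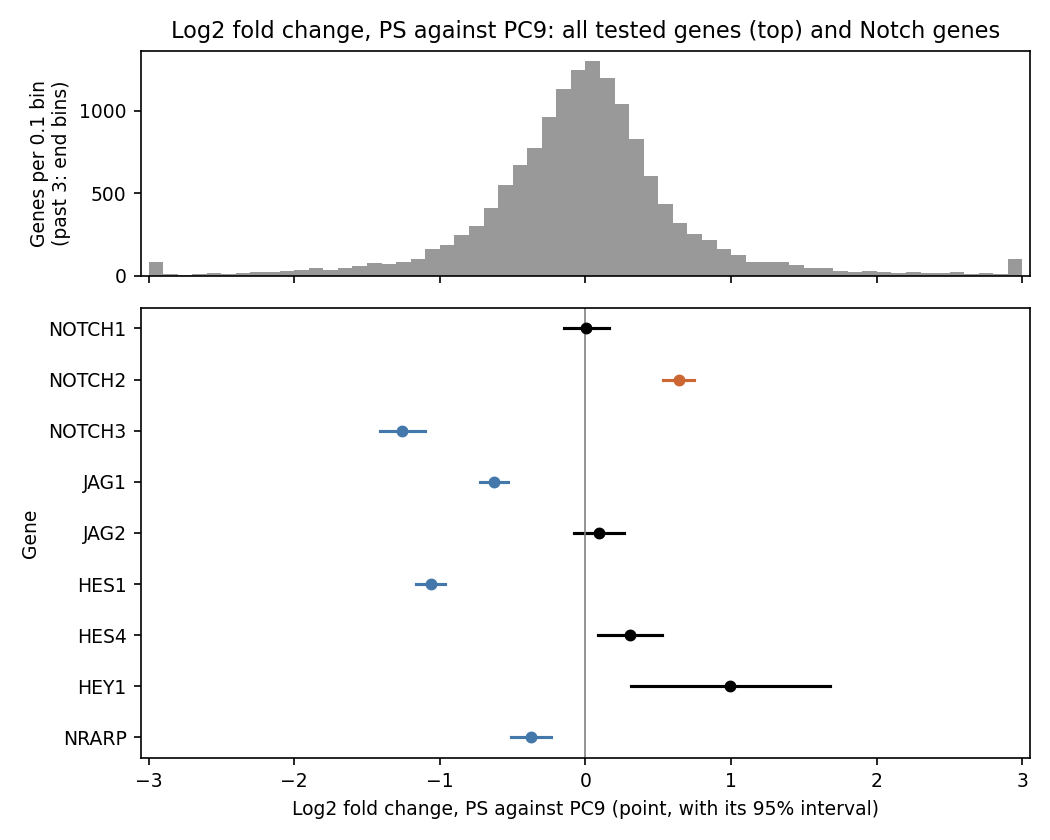
Log2 fold change of PS against PC9 for each tested Notch gene (point, with its 95% interval as a line) under a histogram of the log2 fold changes of all 14626 tested genes, with genes that rose in orange, genes that fell in blue and genes not called in black. NOTCH3 and HES1 lie below -1, NOTCH2 lies at 0.64, and the intervals of NOTCH1 and JAG2 include 0.

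In the order of levels per kilobase, HES1 led in PC9 at 37.2 CPM/kb, followed by NOTCH3 and NOTCH2, which did not differ beyond their spread, then NRARP at 12.0, JAG1 at 8.97, NOTCH1 at 5.63 and HES4 at 4.87 CPM/kb, the last 2 overlapping. JAG2 at 3.86, HEY1 at 0.154 and DLL1 at 0.0233 CPM/kb closed the order. In PS, NOTCH2 led at 32.4 CPM/kb ahead of HES1 at 17.8, followed by NRARP at 9.24 and NOTCH3 at 8.73 CPM/kb, which overlapped. HES4 at 6.02, JAG1 at 5.81 and NOTCH1 at 5.66 CPM/kb overlapped with their neighbours, and JAG2, HEY1 and DLL1 kept their places at the bottom. The ratio of HES1 to HES4 was 7.65 ± 0.515 in PC9 and 2.96 ± 0.106 in PS, and that of HES1 to NRARP was 3.11 ± 0.125 and 1.93 ± 0.0666 (SD, n = 3 each, both per kilobase).

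Over transcripts, 51 of the Notch genes' transcripts were matched, 18 had enough counts to be tested and 4 were called, the 4 named above for NOTCH2, NOTCH3, JAG1 and HES1, beside 7.8% of all 54499 transcripts tested. The 1 that rose and the 3 that fell stand beside 3.89% and 3.91%. Transcript usage could be tested for 6 of the 10 genes. The edgeR diffSpliceDGE test called 0 of them, and 0 had an unadjusted p under 0.05, beside 1.94% of all genes called.

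Other genes of the pathway were read from a list of 65, of which 60 were tested. Of these, 25 rose and 13 fell, 38 in all or 63.3%. Beside these, 56.8% of all tested genes were called, 28.7% upward and 28.1% downward. The median log2 fold change was 0.13, against -0.006 over all tested genes. A more than 2-fold change was found for 8, 7 of them upward. Of all tested genes 11.6% changed that far, 5.65% upward and 5.91% downward. No role was tested as a set, and the counts by role below stand beside the same shares.

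The other receptor, NOTCH4, did not pass the test at a log2 fold change of -0.35 (adjusted p 0.279). Among the other ligands, DLK2, a non-canonical ligand, fell by 0.83 on the log2 scale (adjusted p 0.00122), and DLL3 had a log2 fold change of -0.05 (adjusted p 0.747). DLL4, a ligand known from vessels, had 0 counts in all 3 PC9 libraries and 7, 11 and 7 counts in PS. Against a floor of 3 counts over the PC9 group this was 8.97-fold, a value that leaves out the counting error in PS. DLL4 had too few counts to be tested. DLK1 was at 0 throughout.

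Of the other HES and HEY repressors, 5 were tested, 2 rose and none fell. HES6, which is known to oppose HES1, went from 1.93 ± 0.708 to 4.36 ± 0.356 CPM (SD, n = 3 each), a log2 fold change of 1.18 (adjusted p 0.000581). HEY2 had 5, 9 and 5 counts in PC9 and 14, 20 and 19 in PS, a log2 fold change of 1.57 (adjusted p 0.00222), a call that was lost with DESeq2 and without PC9 replicate 1, PC9 replicate 3 or PS replicate 2. HEY2 passed the filter on low counts only through PS. HES7 at -0.58 (adjusted p 0.0175), HES2 at 0.26 (adjusted p 0.228) and HEYL at -0.29 (adjusted p 0.444) did not pass, HES3 was at 0 and HES5 had a single count in 1 PS library.

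Among 9 genes for receptor-cleaving proteases, 3 rose and 1 fell. ADAM10, which makes the cut outside the membrane, rose by 0.41 on the log2 scale (adjusted p 3.63e-06) and the gamma-secretase subunit PSEN2 by 0.55 (adjusted p 5.21e-05). FURIN, which cuts the receptor on its way to the surface, fell by 0.27 (adjusted p 0.00609), a call lost in 6 of the alternative settings.

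All 5 genes for enzymes that put sugars on the receptor passed the test, 3 upward and 2 downward, although the call of POGLUT1, the glucosyltransferase (log2 fold change 0.27, adjusted p 0.00387), was lost in 7 of the alternative settings. POFUT1, which adds the first fucose, rose from 96.5 ± 0.968 to 156.2 ± 0.835 CPM (SD, n = 3 each), a log2 fold change of 0.69 (adjusted p 2.45e-08). LFNG, a Fringe enzyme that extends that fucose, rose from 4.02 ± 0.536 to 11.4 ± 1.08 CPM, a log2 fold change of 1.5 (adjusted p 6.27e-07). The other Fringe enzymes fell. RFNG fell by 0.52 on the log2 scale (adjusted p 5.94e-05). MFNG, at 20 to 30 counts in PC9 and 9 to 11 in PS, fell by 1.101 (adjusted p 0.00636), a call lost in 8 of the alternative settings.

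Of 5 genes for ligand endocytosis, 2 rose, the ubiquitin ligase NEURL1B by 1.06 on the log2 scale (adjusted p 7.41e-08) and the endocytic adaptor EPN1 by 0.32 (adjusted p 0.000869). In the nuclear complex, 5 of 9 genes rose and 3 fell, the call of MAML1 being lost with gene counts summed from transcripts. The acetyltransferases CREBBP and KAT2A rose by 0.82 (adjusted p 1.99e-08) and 0.47 (adjusted p 1.7e-05), while the Mastermind co-activators MAML2 and MAML3 fell by 0.78 (adjusted p 2.11e-07) and 0.85 (adjusted p 3.16e-07). RBPJ, the DNA-binding partner of all Notch receptors, went from 92.4 ± 7.66 CPM in PC9 to 102 ± 1.66 CPM in PS (SD, n = 3 each) and did not pass (adjusted p 0.0373).

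Of 10 co-repressor genes, 7 rose and 1 fell. TLE4, a Groucho-family co-repressor, rose from 4, 4 and 3 counts in PC9 to 24, 19 and 27 in PS (log2 fold change 2.73, adjusted p 4e-05), having passed the filter only through PS. CIR1, an RBPJ-binding co-repressor, fell by 0.68 (adjusted p 4.9e-07). Of 8 tested genes for receptor degradation and trafficking, none rose and 4 fell, so 50% were called, beside 56.8% of all tested genes. Those that fell were led by the ubiquitin ligases ITCH at -0.63 (adjusted p 3.26e-07) and DTX4 at -0.60 (adjusted p 3.21e-06). The call of DTX3L, another ubiquitin ligase, was lost without PC9 replicate 3, PS replicate 2 or PS replicate 3.

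Among 6 targets that Notch shares with other pathways, 3 rose and 1 fell. The cell cycle inhibitor CDKN1A rose by 1.32 on the log2 scale (adjusted p 7.12e-08) and the transcription factor SNAI2 by 1.43 (adjusted p 1.06e-07), while CCND1, a cyclin of the G1 phase, fell by 0.27 (adjusted p 6.38e-05). The other gene that rose, the growth regulator MYC, had a log2 fold change of 0.16 (adjusted p 0.00772), a call lost in 7 of the alternative settings.

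**Figure D5:**
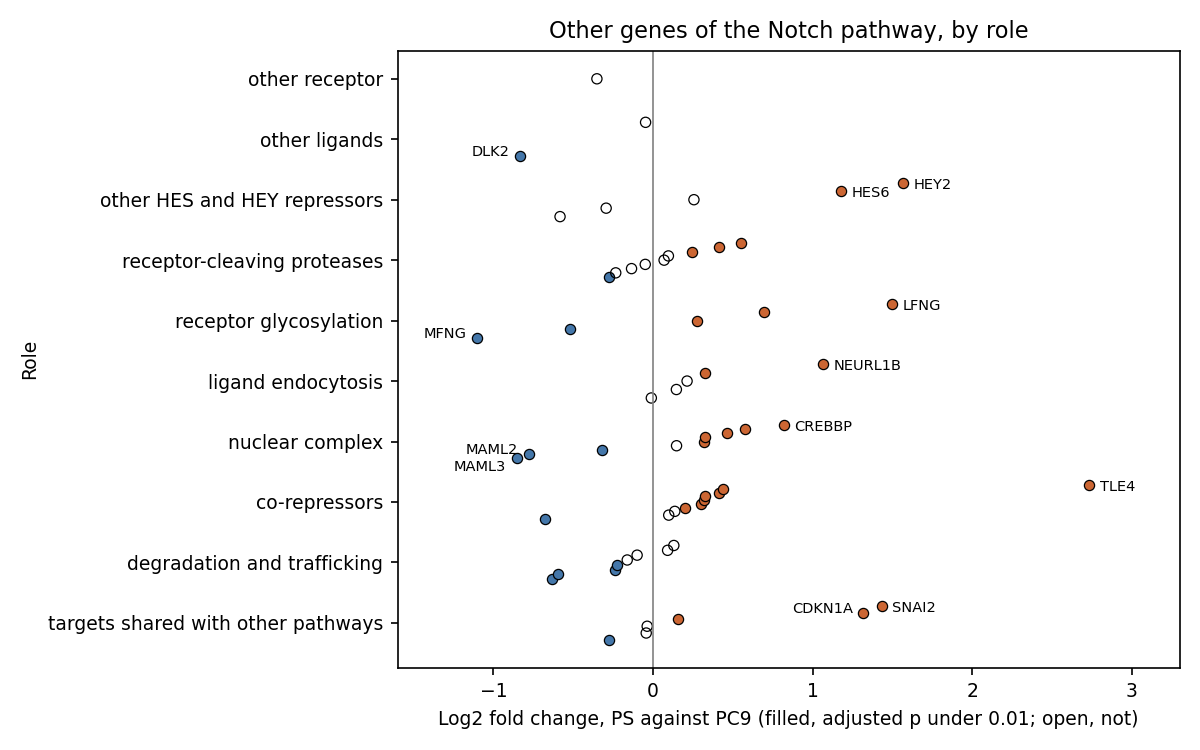
Log2 fold change of PS against PC9 (horizontal axis) for the 60 tested genes of the wider pathway list, 1 row per role and 1 point per gene, filled where the adjusted p was under 0.01. Degradation and trafficking genes show filled points on the lower side only, all 5 glycosylation genes are filled, and TLE4 lies farthest to the right at 2.73.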

How the data were processed

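Bulk RNA-seq of 3 PC9 and 3 PS libraries was used, with groups taken from the sample labels and the erlotinib dose and culture numbers from the study's methods. The authors trimmed and filtered the reads, pseudoaligned them with kallisto 0.46.1 to Ensembl transcripts of GRCh38 and deposited estimated counts per gene symbol and per transcript, which were whole numbers without normalization. No normalized values were used. The uncertainty of dividing reads among similar transcripts enters no test. Genes with low counts were dropped by filterByExpr at its defaults, libraries were scaled by TMM, and PS was compared with PC9 by edgeR 4.0.16 glmQLFit and glmQLFTest in R 4.3.3, with Benjamini-Hochberg adjustment over all genes tested and calls at an adjusted p under 0.01. Transcripts were fitted likewise, and usage was tested with diffSpliceDGE. P-values measure the spread between these libraries, which for PS are pools. Transcript lengths came from GENCODE release 44, which matched 167067 of 188753 transcripts, holding 95.8% of the counts. Alternatives were RLE, upper quartile and library size scaling, DESeq2 1.42.0, limma 3.58.1 voom, no count filter, gene counts summed from transcripts, an adjusted p under 0.05, a replicate block and leaving out each library. The gene, transcript and usage fits were tested on simulated counts with known changes. The simulated gene counts held far fewer changed genes than were called here and used the same dispersion for every gene, so they do not cover data like these. The Notch genes and the pathway and marker lists were chosen with earlier results of these data known. All 10 Notch genes are given. Of the wider list, every receptor, ligand and HES or HEY gene is named, with up to 2 genes a role that rose and 2 that fell with the smallest p, and of transcripts those holding 10% or more of their gene's counts. The values of 1 gene that this rule named are not reported here. HES1-202, NOTCH2NLA, RBPJ, POGLUT1, MYC, MAML1, DTX3L and DLL1's neighbour FAM120B were named after their values were seen.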

Additional observations from a re-analysis of the deposited data

How the results depend on the processing

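Of 273 values recomputed under alternative settings, 259 were rated as unchanged. For log2 fold changes this meant the same direction and side of the threshold. For numbers of called genes or transcripts it meant only a similar number, so 7 called Notch genes were rated as unchanged from 5. Shares and levels per kilobase have no threshold. The same 5 Notch genes (NOTCH2, NOTCH3, JAG1, HES1 and NRARP) were called in every alternative at an adjusted p under 0.01, and 7 with the limit at 0.05, which added HES4 and HEY1. The log2 fold change of NOTCH1, 0.005 as reported, was -0.037 with upper quartile scaling and -0.048 with library size only, and ran from -0.066 to 0.061 when 1 library was left out, never past the threshold. The difference in NOTCH1's share of the receptors was -0.583 percentage points when counts were not divided by length, against 0.180. Deviations of same-numbered libraries from their condition means correlated at 0.187, 0.0357 and 0.0385, and those of PC9 library 2 and PS library 3 at 0.192. With 3 libraries in each condition, these values cannot decide whether the replicate numbers pair the libraries. A replicate block called 8671 genes in all and 40 of the wider list, against 8307 and 38 without it. With it, 5 Notch genes were still called, and 2 rather than 4 of their transcripts. Leaving out 1 library gave 7054 to 8407 called genes in all and 32 to 38 of the wider list. Levels per kilobase moved for 7 of 20 values with lengths of the longest transcripts. The receptor shares from gene counts summed over transcripts were not run because NOTCH1 and DLL1 transcripts were matched only in part or not at all. Depth limits what can be said of DLL1 and HEY1.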
